A study of Homo sapiens with 9 samples.

Results

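The 10 genes described here are the transcription factor ATF4, 4 further bZIP factors linked to it (ATF3, ATF5, DDIT3 and CEBPB), 3 stress-induced brakes on growth signalling (DDIT4, SESN2 and TRIB3) and 2 secreted hormones (ADM2 and STC2). They were taken by symbol from the 58721 genes counted, and all 10 had enough reads to be tested among 16441 genes. The cells were H1299, a widely grown line from a human lung carcinoma. The study set 3 groups of 3 libraries side by side: control cells in serum free medium, cells labelled siCLOCK, and cells given 0.1 mM melatonin. siCLOCK stands for a short interfering RNA against CLOCK, a transcriptional activator of the circadian clock, and melatonin is a hormone of the night. The labels give no treatment time, no non-targeting siRNA and no vehicle. Transfection, solvent or any difference in medium therefore cannot be told apart from the named agent. The design text calls the samples independent without saying what separates them, so p-values measure the spread between these libraries.

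ATF4 is the effector of the integrated stress response. Kinases that sense amino acid shortage, misfolded protein, viral RNA or heme loss phosphorylate the initiation factor eIF2, which slows translation in general while letting ribosomes reach the ATF4 coding region past its upstream reading frames. ATF4 protein then pairs with other bZIP factors, mostly of the C/EBP family, and binds composite elements that join a C/EBP part to an ATF part. Much of this control is on translation, which RNA counts do not measure.

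Gene counts ran from 15384539 to 19192962 a library. CLOCK itself did not pass edgeR's quasi-likelihood test in siCLOCK against control (log2 fold change -0.42, SE 0.14, adjusted p = 0.340). Its level was uneven: CLOCK stood at 51.5%, 78.7% and 93.8% of the control mean in siCLOCK replicates 1, 2 and 3. The library labelled siCLOCK replicate 3 thus goes against its label. That library also shared a technical feature with the 3 melatonin libraries: 2.24% to 2.34% of reads were unmapped in these 4, against 1.22% to 1.36% in the other 5. Melatonin and this technical set can be told apart only through that library. Of 6 markers of carcinoma lines, VIM, KRT8, KRT18 and CDH2 were well expressed and EPCAM and CDH1 were below 1 CPM (a gene's counts as a share of its library's total, multiplied by a constant after TMM scaling of the totals) in every library. All 4 leukocyte markers and all 3 erythroid markers were below 1 CPM, as were 3 of 4 lung epithelial markers, among them the surfactant genes SFTPB and SFTPC. Of 3 endothelial markers PECAM1 alone was above 1 CPM, at 1.97 to 4.08, and of 3 fibroblast markers COL1A1 reached 2.38 and DCN 1.23 CPM.

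In siCLOCK, SESN2, TRIB3 and ADM2 were lower than in control, and none of the 10 genes was higher. In melatonin, 6 were lower: ATF4, ATF3, SESN2, TRIB3, ADM2 and STC2, and again none was higher. The falls were modest, from 0.46 to 0.97 on the log2 scale, where 1 is a halving. Calls were made by edgeR's quasi-likelihood test at an adjusted p under 0.05 across all genes. By the same rule, of all genes tested, 0.0669% were lower and 0.0547% higher in siCLOCK, which is 0.122% in all, and 12.1% were lower and 11.0% higher in melatonin, which is 23.1% in all. At an unadjusted p under 0.05, 8 of the 10 were lower and 0 higher in siCLOCK, against 3.75% and 4.49% of all genes tested. In melatonin 7 were lower and 0 higher at that threshold, against 17.9% and 17.3%. The 10 genes were chosen with earlier results of these data known, so their counts beside these shares do not test the set. DESeq2 called 0 of the 10 higher in either. The median log2 fold change of the 10 was -0.41 in siCLOCK and -0.50 in melatonin, beside 0.00 and 0.01 over all genes tested. Both comparisons use the same 3 control libraries, so their values stand side by side and do not support each other.

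**Figure D1:**
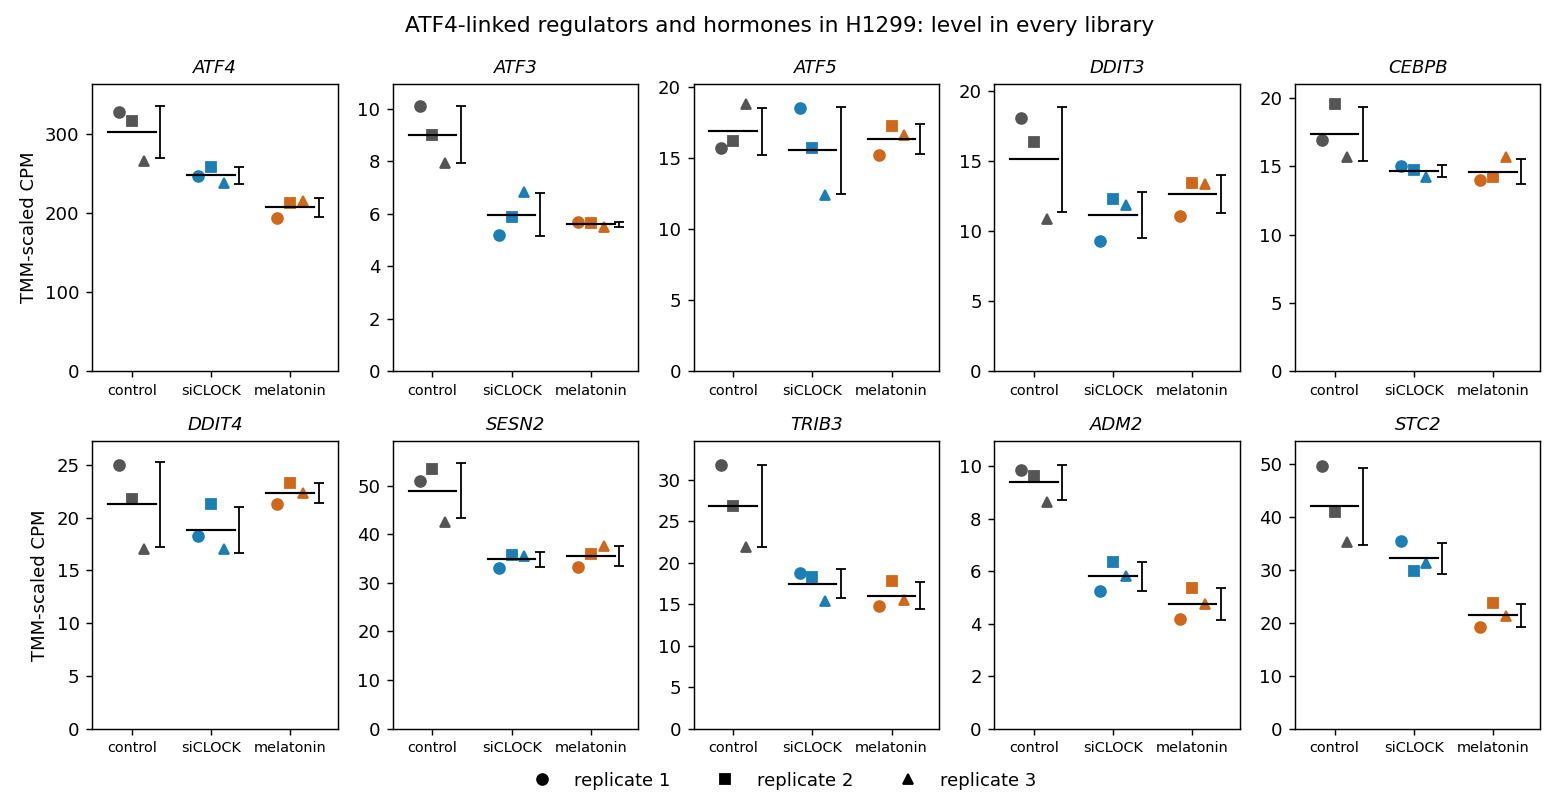
Level of each of the 10 genes in every library, in TMM-scaled CPM; each point is a library (circle, square and triangle for replicates 1, 2 and 3), the long bar is the group mean and the whisker is 1 SD (n = 3). The melatonin points of ATF4, ATF3, CEBPB, SESN2, TRIB3, ADM2 and STC2 lie below every control point, those of CEBPB by a narrow margin. The melatonin points of DDIT3 and DDIT4 lie within the control range. Those of ATF5 overlap with control, with melatonin replicate 1 below the lowest control point.

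The siCLOCK calls depended on single libraries. All 3 were lost when control replicate 1, control replicate 2 or siCLOCK replicate 2 was left out. Those fits called 2, 4 and 2 genes in all, and 0.00598% of all genes tested were lower in each. Without control replicate 3, 6 of the 10 were lower, and 0.155% of all genes tested were lower. With siCLOCK replicate 3 left out, the library whose CLOCK level goes against its label, SESN2 stayed lower at -0.51 (adjusted p = 0.0124), TRIB3 at -0.54 (adjusted p = 0.0367) and ADM2 at -0.70 (adjusted p = 0.0227). ATF3 then joined them at -0.71 (adjusted p = 0.0189), and 0.257% of all genes tested were lower. In siCLOCK, 6 of the 10 had every siCLOCK library below every control library, against 5.06% of all genes tested, and 0 lay above, against 5.75%. In melatonin 7 of 10 lay below, against 21.4%, and 0 above, against 21.9%.

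ATF4 (ENSG00000128272.14, chromosome 22, 39519695 to 39522685, + strand, GRCh38) was the most abundant of the 10. It stood at 327, 315 and 265 CPM in the control libraries, at 246, 258 and 237 CPM in siCLOCK and at 193, 212 and 215 CPM in melatonin. The 3 groups did not overlap: control was highest, siCLOCK was between and melatonin was lowest. Against a control mean of 302 ± 32.9 CPM (SD, n = 3), melatonin was at 207 ± 11.97 CPM, a log2 fold change of -0.55 (SE 0.08, adjusted p = 4.57e-05). The siCLOCK mean of 247 ± 10.3 CPM did not pass (-0.29, SE 0.08, adjusted p = 0.189), though DESeq2 put it just past the threshold (adjusted p = 0.0499). With a term for the technical set, which takes the set difference from siCLOCK alone, the melatonin value was -0.46 (adjusted p = 0.0360); 4 of the 10 were lower in that fit, against 2.96% of all genes tested. The 4 processed copies ATF4P1 to ATF4P4 of ATF4 lie elsewhere in the genome and carried almost no uniquely assigned reads, at means of 0.111, 0, 4.11 and 0.556 counts a library.

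ATF3 (ENSG00000162772.16, chromosome 1, 212565334 to 212620777, + strand) is a stress-induced factor that mostly represses transcription and is itself induced by ATF4. It was scarce, with 90 to 190 reads a library. Control libraries were at 10.1, 8.998 and 7.91 CPM, siCLOCK libraries at 5.19, 5.86 and 6.82 CPM and melatonin libraries at 5.67, 5.63 and 5.49 CPM. Every treated library was below every control library, and the melatonin libraries lay within the siCLOCK range. ATF3 fell in melatonin by 0.69 on the log2 scale (SE 0.13, adjusted p = 9.17e-04), from 8.997 ± 1.09 to 5.598 ± 0.0977 CPM (SD, n = 3). In siCLOCK the value was -0.59 (SE 0.13, adjusted p = 0.0747).

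Motifs were sought near the start sites of the 10 genes, and elements outside the windows searched would be missed. Windows of 250 bases before to 50 after each RefSeq start (GRCh38.p14) were held for all 10 genes and searched on both strands. The C/EBP-ATF composite element TGATGNAA was in 1 of the 10, ATF3, and in 2.66% of the 10942 tested genes with a window. The palindrome CACGTG is the E-box that CLOCK and its partner recognise along with many other factors. It was in 1 of the 10, ATF4, which is near its share of 12.5% among those tested genes. TGACGTCA, the cyclic AMP response element, and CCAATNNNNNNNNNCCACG, the endoplasmic reticulum stress element, were in 0 of the 10, against 3.75% and 0.155%. No other of these motifs was found in the windows of these genes, so none overlaps another. The stretches show the 2 matches beside those of CHAC1 and ASNS, classical ATF4 targets, with the motif in capitals and each read 5′ to 3′ on the gene's strand. The ATF4 stretch is chr22:39520465-39520494 (+ strand), at -94 to -65 from that start and within a non-coding part of an exon of another transcript. The ATF3 stretch is chr1:212565205-212565234 (+ strand), at -202 to -173 from its start and upstream of the gene in GENCODE 29. The CHAC1 stretch is chr15:40953251-40953280 (+ strand) and holds the element on the opposite strand, and the ASNS stretch is chr7:97872458-97872487 (- strand). Both lie in non-coding exon sequence in GENCODE 29.
ATF4: ggaggagacggtCACGTGgtcgcggcggaa
ATF3: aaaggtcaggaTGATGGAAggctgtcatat
CHAC1: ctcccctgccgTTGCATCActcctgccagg
ASNS: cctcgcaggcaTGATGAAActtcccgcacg
These matches are letters in a window and no record of binding. CHAC1, the glutathione-degrading enzyme, was at 18.8 ± 2.95 CPM in control, 8.52 ± 2.83 in siCLOCK and 6.67 ± 1.48 in melatonin (SD, n = 3), and fell in both (adjusted p = 0.0164 and 1.85e-05). Its siCLOCK call was lost without control replicate 1, control replicate 2 or siCLOCK replicate 2 (adjusted p = 0.172, 0.229 and 0.0524). ASNS, asparagine synthetase, was at 4.09 ± 0.825, 2.03 ± 0.545 and 1.97 ± 0.196 CPM and fell in melatonin (-1.06, adjusted p = 0.00121), with -1.01 in siCLOCK (adjusted p = 0.0583).

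DDIT3 (ENSG00000175197.12, chromosome 12, 57516588 to 57521737, - strand) encodes CHOP, the C/EBP-family factor tied to cell death under prolonged stress. Control libraries were at 18.1, 16.4 and 10.9 CPM, siCLOCK libraries at 9.25, 12.3 and 11.9 CPM and melatonin libraries at 11.1, 13.4 and 13.4 CPM. Control replicate 3 lay as low as the treated libraries, so the groups overlapped. DDIT3 passed in neither comparison, at -0.44 in siCLOCK (SE 0.15, adjusted p = 0.371) and -0.26 in melatonin (SE 0.15, adjusted p = 0.232).

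CEBPB (ENSG00000172216.5, chromosome 20, 50190734 to 50192689, + strand) encodes a C/EBP factor that can pair with ATF4. Its libraries were at 16.9, 19.6 and 15.7 CPM in control, 15.04, 14.7 and 14.2 CPM in siCLOCK and 14.0, 14.2 and 15.7 CPM in melatonin. All 6 treated libraries lay below the lowest control library, though the highest melatonin library came close to it. At -0.25 in siCLOCK (SE 0.10, adjusted p = 0.456) and -0.25 in melatonin (SE 0.10, adjusted p = 0.0685) it passed in neither.

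ATF5 (ENSG00000169136.10, chromosome 19, 49928702 to 49933935, + strand), a relative of ATF4 that is also translated under stress and is linked to the mitochondrial stress response, passed in neither comparison. It was at 15.7, 16.2 and 18.8 CPM in control, 18.6, 15.7 and 12.4 CPM in siCLOCK and 15.2, 17.3 and 16.6 CPM in melatonin. The groups overlapped throughout: siCLOCK replicate 3 was the lowest library and control replicate 3 the highest. The log2 fold change was -0.12 in siCLOCK (95% interval -0.37 to 0.13) and -0.04 in melatonin (-0.29 to 0.21), with adjusted p = 0.881 and 0.840.

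Among the brakes on growth signalling, SESN2 (ENSG00000130766.4, chromosome 1, 28259527 to 28282491, + strand) encodes sestrin 2, a leucine sensor that holds back mTORC1 through GATOR2. Control libraries were at 51.0, 53.5 and 42.5 CPM, siCLOCK libraries at 33.1, 35.8 and 35.6 CPM and melatonin libraries at 33.3, 35.9 and 37.5 CPM. The 6 treated libraries lay within 33.1 to 37.5 CPM, all below the lowest control library. SESN2 fell from 49.0 ± 5.74 CPM to 34.9 ± 1.52 in siCLOCK (-0.49, SE 0.09, adjusted p = 0.0299) and to 35.6 ± 2.13 in melatonin (-0.46, SE 0.09, adjusted p = 8.05e-04; SD, n = 3). With the technical set term the melatonin value was -0.51 (adjusted p = 0.0521).

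TRIB3 (ENSG00000101255.10, chromosome 20, 362835 to 397559, + strand) encodes a pseudokinase that binds AKT and also restrains ATF4 and CHOP. It was at 31.8, 26.9 and 21.9 CPM in control, 18.8, 18.3 and 15.4 CPM in siCLOCK and 14.8, 17.8 and 15.5 CPM in melatonin. Neither treatment overlapped with control, and the 2 treatments overlapped with each other. TRIB3 fell from 26.9 ± 4.95 CPM to 17.5 ± 1.804 in siCLOCK (-0.62, SE 0.12, adjusted p = 0.0425) and to 16.01 ± 1.61 in melatonin (-0.74, SE 0.12, adjusted p = 2.29e-04; SD, n = 3). The melatonin value was -0.48 (adjusted p = 0.195) with the technical set term, which ended that call.

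DDIT4 (ENSG00000168209.4, chromosome 10, 72273920 to 72276036, + strand) encodes REDD1, which restrains mTORC1 through the TSC complex. Its libraries were at 25.0, 21.8 and 17.0 CPM in control, 18.2, 21.3 and 17.1 CPM in siCLOCK and 21.3, 23.2 and 22.4 CPM in melatonin. The melatonin libraries sat inside the control range and above all 3 siCLOCK libraries by a narrow margin. The log2 fold change was -0.17 in siCLOCK (95% interval -0.42 to 0.07, adjusted p = 0.768) and 0.07 in melatonin (-0.17 to 0.31, adjusted p = 0.712). This was the 1 gene of the 10 whose fitted melatonin value lay above 0, and it lay below 0 without control replicate 3.

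**Figure D2:**
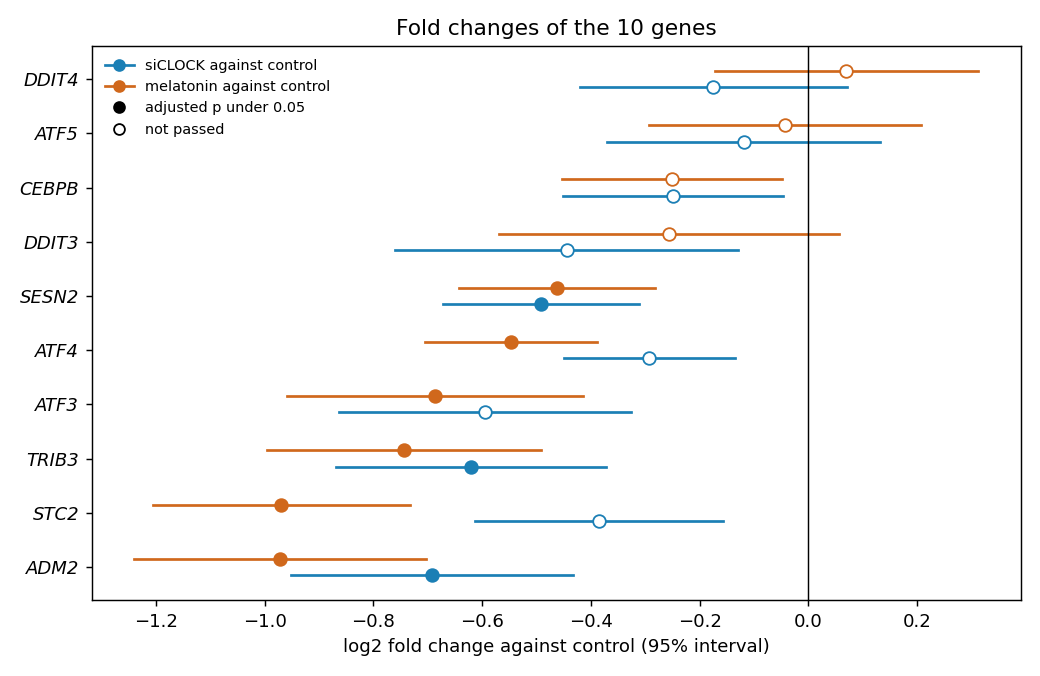
Log2 fold change against control with its 95% interval for each of the 10 genes, in siCLOCK and in melatonin; filled points passed the adjusted p threshold. ADM2 and STC2 lie farthest left in melatonin, at -0.97 each, and ADM2 also in siCLOCK, at -0.69.

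Of the 2 hormones, ADM2 (ENSG00000128165.8, chromosome 22, 50481556 to 50486440, + strand) encodes intermedin, a peptide of the calcitonin family that acts through the adrenomedullin receptors. It was scarce, with 66 to 186 reads a library. Control libraries were at 9.87, 9.63 and 8.64 CPM, siCLOCK libraries at 5.25, 6.34 and 5.82 CPM and melatonin libraries at 4.16, 5.37 and 4.74 CPM. Every treated library was below every control library, and siCLOCK and melatonin overlapped at their edges. ADM2 fell from 9.38 ± 0.653 CPM to 5.80 ± 0.547 in siCLOCK (-0.69, SE 0.12, adjusted p = 0.0333) and to 4.76 ± 0.606 in melatonin (-0.97, SE 0.13, adjusted p = 2.96e-05; SD, n = 3). Melatonin left 51.0% of the control level, and with the technical set term its value was -0.98 (adjusted p = 0.0180).

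STC2 (ENSG00000113739.10, chromosome 5, 173314713 to 173329503, - strand) encodes stanniocalcin 2, a secreted glycoprotein that blocks the protease PAPP-A and so limits the release of insulin-like growth factors. It was at 49.7, 41.0 and 35.2 CPM in control, 35.5, 29.7 and 31.4 CPM in siCLOCK and 19.3, 23.7 and 21.3 CPM in melatonin. The melatonin libraries were the lowest 3, while siCLOCK replicate 1 reached just above control replicate 3. STC2 fell in melatonin from 42.0 ± 7.29 to 21.4 ± 2.19 CPM (-0.97, SE 0.11, adjusted p = 7.07e-06; SD, n = 3) and kept -0.91 with the technical set term (adjusted p = 0.00528). In siCLOCK, at 32.2 ± 2.97 CPM, the value was -0.38 (SE 0.11, adjusted p = 0.253).

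Set against each other, melatonin and siCLOCK differed in 2 of the 10 genes, both lower in melatonin, where 10.1% of all genes tested were lower, 7.43% higher and 17.5% either. STC2 was lower by -0.59 (SE 0.11, adjusted p = 0.00171) and ATF4 by -0.25 (SE 0.08, adjusted p = 0.0257), and in both the groups did not overlap, as in 17.4% of all genes in that direction. Without siCLOCK replicate 3 these values were -0.60 (adjusted p = 8.10e-04) and -0.28 (adjusted p = 0.0102). The ATF4 call was lost without siCLOCK replicate 2, melatonin replicate 1 or melatonin replicate 2, at adjusted p between 0.0599 and 0.124, and with the technical set term, at -0.20 (adjusted p = 0.276). For the genes called in both treatments the difference did not pass: SESN2 was at 0.03 (95% interval -0.15 to 0.21), TRIB3 at -0.12 (-0.38 to 0.14) and ADM2 at -0.28 (-0.56 to 0.01). No gene of the 10 was higher in melatonin than in siCLOCK by edgeR, with 0 also at an unadjusted p under 0.05, against 14.8% of all genes tested, and 0 by DESeq2. At that threshold 2 were lower, against 16.5%. DDIT4 lay closest, with groups that did not overlap (0.24, SE 0.12, adjusted p = 0.160), as in 16.8% of all genes in that direction.

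Within the control group most of the 10 genes had their lowest value in the same library. Control replicate 3 was the lowest control library for 9 of them, with ATF5 the exception, while 33.6% of genes with at least 5 CPM were lowest there. Melatonin replicate 1 was the lowest melatonin library for 9, with ATF3 the exception, against 37.1% of such genes. The median log2 ratio of the 10 to the control mean was 0.14, 0.04 and -0.20 in the control libraries, -0.41, -0.38 and -0.41 in siCLOCK and -0.60, -0.48 and -0.44 in melatonin. Control replicate 3 thus lay between the other controls and the treated libraries, and siCLOCK replicate 3, with CLOCK near the control level, sat level with siCLOCK replicates 1 and 2. The median coefficient of variation among controls was 11.9% for the 10 genes and 5.96% for genes with at least 5 CPM.

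Per kilobase of exon, a scale that allows levels of different genes to be compared, ATF4 led in control at 120 ± 13.1 CPM per kb (SD, n = 3). SESN2 followed at 14.2 ± 1.66, DDIT3 at 11.6 ± 2.88, DDIT4 at 10.3 ± 1.95, CEBPB at 8.90 ± 1.01, TRIB3 at 7.82 ± 1.44, STC2 at 6.85 ± 1.19 and ATF5 at 5.72 ± 0.562 CPM per kb. ATF3 and ADM2 were last, at 2.23 ± 0.269 and 2.19 ± 0.153 CPM per kb. Neighbours between SESN2 and ATF5 in this order differed by less than the larger of their 2 SDs, as did ATF3 and ADM2. The gaps above SESN2 and below ATF5 exceeded the spread.

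For 4 of the 10 the level depends on how reads over shared exons were counted. Reads that fall on 2 genes are left unassigned when strand is ignored, and the libraries carried no strand. DDIT4 shares 847 of its 2058 exon bases with the antisense gene DDIT4-AS1, which lies wholly inside them. DDIT3 shares 39.6% of its exon bases, mostly with MARS, the methionyl-tRNA synthetase gene on the other strand. ATF5 shares 23.7%, mostly with NUP62, and CEBPB 11.8% with CEBPB-AS1; the other 6 share none. Adding the 2 strand-specific counts, which gives each shared read to both genes, raised the raw counts 3.51 times for DDIT4, 2.14 times for ATF5, 1.79 times for DDIT3 and 1.36 times for CEBPB. On that sum, DDIT4 stood at 81.7, 60.6 and 53.1 CPM in control, 56.5, 64.3 and 57.1 CPM in siCLOCK and 61.3, 74.0 and 66.8 CPM in melatonin. Both treatments overlapped with control, and DDIT4 did not pass in siCLOCK (-0.14, adjusted p = 0.838) or melatonin (0.05, adjusted p = 0.802). Its control level per length became 31.6 ± 7.21 CPM per kb, the second of the 10 after ATF4 at 106 ± 11.5. On the sum, DDIT3 (-0.33, adjusted p = 0.0442) and CEBPB (-0.31, adjusted p = 0.0266) were lower in melatonin, which brought the count to 8 of 10, against 12.4% of all genes tested on that sum. Reads of MARS, itself lower in melatonin (-0.41, adjusted p = 3.21e-04), enter that DDIT3 value, and their part in it was not tested. In siCLOCK TRIB3 had the same value as before, -0.62, and its adjusted p on the sum was 0.0567, with 18591 genes tested there.

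**Figure D3:**
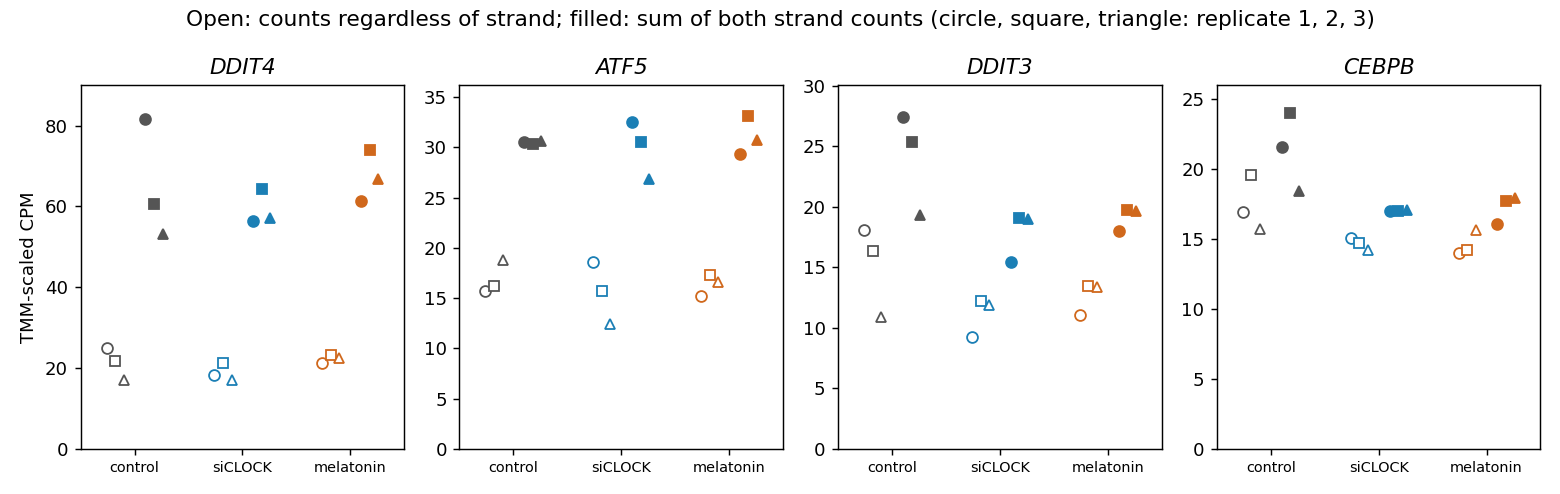
TMM-scaled CPM of the 4 genes that share exon bases with another gene, per library, counted regardless of strand (open) and as the sum of both strand counts (filled). DDIT4 moves the most, from 17.0 to 25.0 CPM up to 53.1 to 81.7 CPM in control, and each treatment overlaps with control on both scales.

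The genes whose levels followed the 3 genes called in both treatments most closely were sought among 10525 protein-coding genes with at least 5 CPM. Likeness was the root mean square difference in log2 ratio to the control mean over 9 libraries. For SESN2 the nearest were CCDC61 (0.107), CEBPG (0.114) and GADD45B (0.119). For TRIB3 they were JDP2 (0.114), PCK2 (0.139) and PHGDH (0.140), and for ADM2 JDP2 (0.191), SLC7A5 (0.225) and PHGDH (0.226). CEBPG and JDP2 are bZIP factors, PHGDH opens serine synthesis, PCK2 is the mitochondrial phosphoenolpyruvate carboxykinase, SLC7A5 carries leucine and GADD45B is a stress-induced signalling protein.

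The supply of amino acids is the best-known output of ATF4, and 29 of its genes were listed and tested. In siCLOCK 5 were lower, 0 higher and 24 did not pass, with 0 higher also at an unadjusted p under 0.05 and by DESeq2, and the median was -0.23. In melatonin 24 were lower, 2 higher and 3 did not pass, with a median of -0.41. Of all genes tested, 0.0669% were lower and 0.0547% higher in siCLOCK, and 12.1% and 11.0% in melatonin. This list too was chosen with earlier results of these data known, so its counts beside these shares do not test it. SLC7A11, the cystine carrier, was at 20.1 ± 2.40 CPM in control, 10.5 ± 1.34 in siCLOCK and 8.49 ± 1.21 in melatonin (SD, n = 3), and fell in both (adjusted p = 0.00196 and 1.27e-06). SLC7A5 was at 167 ± 23.6, 118 ± 15.6 and 74.5 ± 6.72 CPM, and fell in melatonin (-1.17, adjusted p = 3.71e-07), with -0.51 in siCLOCK (adjusted p = 0.0504). With the technical set term 10 of the 29 were lower and 0 higher in melatonin, where 2.96% of all genes tested were lower. In siCLOCK 1 was lower without control replicate 1, control replicate 2 or siCLOCK replicate 2, with 0.00598% of all genes tested lower in each. Without control replicate 3, 8 were lower (0.155% of all genes tested). There were 9 lower without siCLOCK replicate 1 (0.227%) or siCLOCK replicate 3 (0.257%).

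Upstream of ATF4, the calls among the eIF2 kinases and their stimulators lay near the shares of all genes tested. At an adjusted p under 0.05, 11.0% of all genes tested were higher and 12.1% lower in melatonin, and 0.122% passed in siCLOCK. Of 8, 0 passed in siCLOCK, with 0 at an unadjusted p under 0.05 and 0 by DESeq2, and in melatonin DELE1, which relays mitochondrial stress, rose alone (0.32, SE 0.08, adjusted p = 0.00494). EIF2AK3, the PERK kinase, was at 0.17 in both treatments and did not pass (adjusted p = 0.714 and 0.234), nor did EIF2AK4, the amino acid sensor GCN2 (0.07 and 0.03, adjusted p = 0.872 and 0.814). Of 13 genes of eIF2, its exchange factor eIF2B and its phosphatase, 0 passed in siCLOCK by edgeR or DESeq2 (1 lower at an unadjusted p under 0.05) and 5 were lower in melatonin. EIF2S2, the eIF2 beta subunit, fell the most clearly of these, from 370 ± 17.3 to 264 ± 1.63 CPM (-0.48, SE 0.06, adjusted p = 2.77e-05; SD, n = 3). PPP1R15A, the stress-induced phosphatase subunit GADD34 and a target of ATF4 and CHOP, did not pass at -0.14 and -0.16 (adjusted p = 0.638 and 0.112). Of 6 tested ubiquitin ligases and acetyltransferases that act on ATF4 protein, 0 passed in siCLOCK by edgeR or DESeq2 (1 higher at an unadjusted p under 0.05) and 4 rose in melatonin. BTRC, the ligase subunit that marks ATF4 for destruction, was among them (0.40, SE 0.08, adjusted p = 0.00131), with EP300 (0.27, adjusted p = 0.00887) and KAT2B (0.30, adjusted p = 0.0288). The KAT2B call was lost without any library except control replicate 3, and the EP300 call without control replicate 1 or melatonin replicate 2. In melatonin the eIF2 list had 1 or 2 genes lower and the ligase list 1 to 4 higher when any single library was left out. In those fits 8.20% to 10.7% of all genes tested were lower, and 1061 to 1538 genes were higher. With the technical set term the counts were 1 and 0, against 2.96% lower and 283 of 16441 genes higher.

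Among 25 tested bZIP partners, 0 passed in siCLOCK by edgeR, with 4 lower at an unadjusted p under 0.05 and 2 lower by DESeq2. Of all genes tested, 3.75% and 0.152% were lower by those rules. In melatonin 4 were higher and 6 lower, against 11.0% and 12.1% of all genes tested. CEBPG, a frequent partner of ATF4, was at 78.5 ± 9.28 CPM in control, 59.2 ± 3.28 in siCLOCK and 54.5 ± 1.68 in melatonin (SD, n = 3), just short of the threshold in siCLOCK (adjusted p = 0.0502) and lower in melatonin (-0.53, adjusted p = 1.22e-04). FOSL1, an AP-1 factor, went from 474 ± 44.1 to 241 ± 26.3 CPM in melatonin (-0.98, adjusted p = 4.84e-06), with 524 ± 104 CPM in siCLOCK. CEBPD rose in melatonin, from 10.9 ± 0.973 to 17.2 ± 1.32 CPM (0.66, adjusted p = 1.39e-04), so relatives of CEBPB moved in both directions. With the technical set term 1 of the 25 was higher and 2 lower in melatonin, against 283 of 16441 genes higher and 2.96% lower. Leaving out single libraries gave 1 to 4 higher and 3 to 6 lower. In those fits 1061 to 1538 of all genes tested were higher, and 8.20% to 10.7% were lower.

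**Figure D4:**
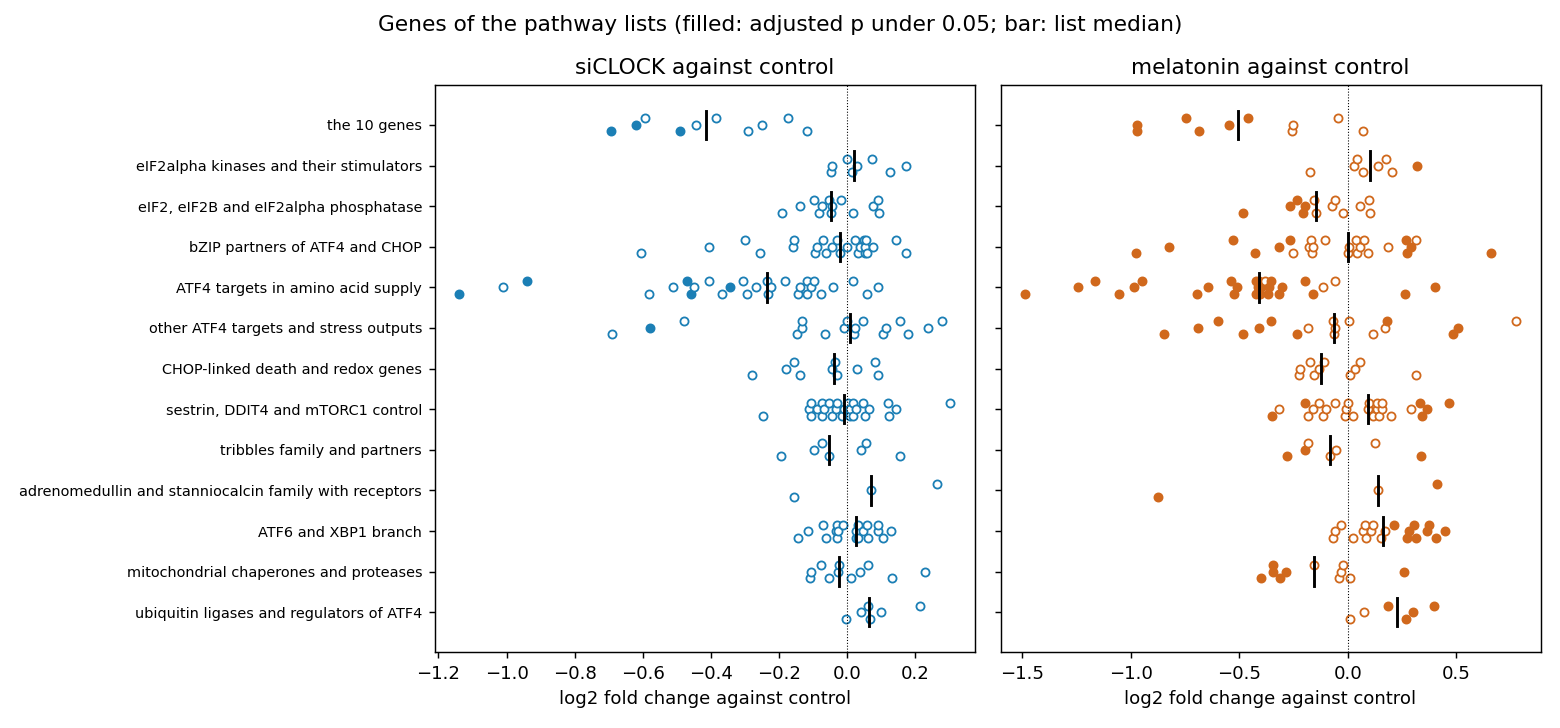
Log2 fold change against control of each tested gene of the 12 pathway lists and of the 10 genes, in siCLOCK (left) and melatonin (right); filled points passed the adjusted p threshold and the bar is the list median. The amino acid supply list has medians of -0.23 and -0.41, and the ATF6 and XBP1 list has 9 filled points in melatonin, all above 0.

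Some relatives of the brakes and hormones went the other way from the members. SESN1, the second sestrin, rose in melatonin from 9.01 ± 0.434 to 11.6 ± 0.413 CPM (0.37, adjusted p = 0.0116; SD, n = 3), where SESN2 fell; that call was lost without control replicate 2 or melatonin replicate 2 (adjusted p = 0.0562 and 0.0668). Of 27 tested genes of the sestrin, DDIT4 and mTORC1 circuit, 4 were higher and 2 lower in melatonin. These counts lie near the shares of all genes tested, 11.0% higher and 12.1% lower. RRAGC, a Rag GTPase (0.47, adjusted p = 0.00381), and TSC1 (0.34, adjusted p = 4.66e-04) were higher and RHEB, the activator of mTORC1 (-0.35, adjusted p = 0.00115), was lower. TRIB1 rose in melatonin (0.34, adjusted p = 0.0403), where TRIB3 fell. The TRIB1 call was lost when any single control or melatonin library was left out. Of the 7 genes of the tribbles list 1 was higher and 2 were lower, against the same shares of all genes tested. Neither list had a call in siCLOCK by edgeR or DESeq2, with 1 gene higher and 0 lower at an unadjusted p under 0.05 in the first and 0 in the second. Of the adrenomedullin and stanniocalcin list 3 of 11 genes had reads enough to test, and these did not include the receptors. STC1 rose in melatonin from 153 ± 17.4 to 203 ± 10.2 CPM (0.41, adjusted p = 0.00324) and ADM, adrenomedullin itself, fell from 11.1 ± 3.70 to 6.02 ± 0.943 CPM (-0.88, adjusted p = 0.00426). Without control replicate 1 the ADM value was -0.57 (adjusted p = 0.0425), and with the technical set term it was -0.49 (adjusted p = 0.432). In siCLOCK none of the 3 passed by edgeR or DESeq2, with 1 higher at an unadjusted p under 0.05. In the mTORC1 list leaving out single libraries gave 2 to 4 higher and 1 to 2 lower in melatonin. In those fits 1061 to 1538 of all genes tested were higher, and 8.20% to 10.7% were lower. The technical set term left 283 of 16441 genes higher and 2.96% lower. With the technical set term 1 of that list was higher and 0 lower, and 0 of the tribbles list and 0 of the adrenomedullin and stanniocalcin list passed in melatonin.

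The other stress outputs had calls in both directions. At an adjusted p under 0.05, 12.1% of all genes tested were lower and 11.0% higher in melatonin. With the technical set term 2.96% were lower and 283 of 16441 genes were higher there. In siCLOCK 0.0669% were lower without that term. Of 18 tested further ATF4 targets, GADD45B alone passed in siCLOCK (-0.58, SE 0.10, adjusted p = 0.0333), and in melatonin 7 were lower and 3 higher, 1 and 1 with the technical set term. Leaving out single libraries gave 4 to 7 lower and 2 to 3 higher there, with 4 lower without control replicate 1 or melatonin replicate 3. In those fits 8.20% to 10.7% of all genes tested were lower, and 1061 to 1538 genes were higher. The GADD45B call was lost without control replicate 1, control replicate 2 or siCLOCK replicate 2. EIF4EBP1, the translation repressor 4E-BP1, fell in melatonin from 148 ± 11.5 to 91.5 ± 6.53 CPM (-0.69, adjusted p = 2.29e-05; SD, n = 3), while SQSTM1, the autophagy receptor p62, rose from 361 ± 25.6 to 514 ± 38.2 CPM (0.51, adjusted p = 2.89e-04). Of 10 tested genes tied to CHOP in death and redox control, 0 passed in either comparison by edgeR or DESeq2. At an unadjusted p under 0.05, 0 did in siCLOCK and 1 was higher and 1 lower in melatonin, where 1 was lower with the technical set term. The ATF6 and XBP1 branch of the endoplasmic reticulum response had 9 of 20 genes higher and 0 lower in melatonin (0 lower also at an unadjusted p under 0.05 and by DESeq2). HSPA5, the chaperone BiP, rose there from 688 ± 22.6 to 912 ± 3.67 CPM (0.41, SE 0.06, adjusted p = 9.49e-05), and 3 of the 20 were higher with the technical set term. In siCLOCK that branch had 0 calls by edgeR or DESeq2 and 0 at an unadjusted p under 0.05. Of 11 mitochondrial chaperones and proteases, 5 were lower and 1 higher in melatonin, HSPD1 (-0.35, adjusted p = 0.00278) and LONP1 (-0.35, adjusted p = 0.00238) among the lower. Of these 11, 3 were lower without control replicate 2, and 0 passed with the technical set term. In siCLOCK 0 of these 11 passed by edgeR or DESeq2, with 2 higher at an unadjusted p under 0.05.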

How the data were processed

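Total RNA of 9 H1299 libraries was read in pairs on the BGIseq500 platform, per the labels' protocols. The authors aligned reads to GRCh38 with STAR 2.7.9a, per the submitters' processing notes, and deposited unnormalized read counts per gene: 1 column regardless of strand, used here, and 1 for each strand. The annotation release is not given in the sources used here; all 58721 gene IDs match GENCODE 29. Rows naming no gene held 20.3% to 21.8% of reads and were left out. Counts were tested with edgeR 4.0.16 (quasi-likelihood, TMM scaling, filterByExpr, R 4.3.3), all 9 libraries in 1 fit, with Benjamini-Hochberg adjustment over 16441 genes. Named beside the 10 genes are CLOCK, up to 3 genes of each list with the smallest p in each comparison and at least 5 CPM, and the nearest genes; ASNS, SESN1 and MARS fall outside that rule and were chosen after their values were seen. Not every gene that the rule selects is reported here. Members and lists were chosen with earlier results of these data known. The script was tested on simulated data. No 2 libraries of the same group agreed within sampling noise, and libraries of different groups were not compared in this way. DESeq2 1.42.0, other scalings, filters and strand columns, a replicate block, a technical set term and leaving out each library were tried.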

Additional observations from a re-analysis of the deposited data

How the results depend on the processing

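In siCLOCK against control, 20 genes were called; the count was 69 by DESeq2, 211 with no filter on low counts, 5 with at least 5 CPM in at least 3 libraries, 7 with only the 6 libraries compared, 116 with the technical set term, and 9 and 13 on the first and second strand column. The count of the 10 genes lower, 3, became 7 with no filter, 0 with at least 5 CPM, 0 with only the 6 libraries and 1 on the first strand column. The shares of all genes tested that were lower were 0.174%, 0.0176%, 0.0250% and 0.0179% in these fits, against 0.0669%. Leaving out 1 library gave 2 to 107 genes called and 0 to 6 of the 10 lower, with 0.00598% to 0.257% of all genes tested lower. In melatonin against control, 3790 genes were called, 770 with the technical set term and 2451 to 3333 with 1 library left out. With 1 library left out 6 to 8 of the 10 were lower, and 8.20% to 10.7% of all genes tested. With the set term 4 of the 10 were lower, and 2.96% of all genes tested. In melatonin against siCLOCK, 2876 genes were called, and 961 with the set term, where 1 of the 10 and 3.85% of all genes tested were lower. Leaving out 1 library gave 1650 to 3858 genes called and 1 to 2 of the 10 lower, with 6.18% to 12.9% of all genes tested lower. The cause of these shifts was not tested.

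Replicate numbers did not pair the samples: the correlation of same-numbered deviations ran from -0.09 to 0.06. A fit with the replicate block called 12 genes in siCLOCK against control, and the same 3, 6 and 2 of the 10 were lower in the 3 comparisons. Of all genes tested in that fit, 0.0487%, 11.4% and 9.43% were lower.

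Values near 0, none of them called, changed sign. ATF5 in siCLOCK was 0.0201 with the set term and 0.0038 on the first strand column, and -0.265 to 0.0144 with 1 library left out. ATF5 in melatonin was 0.419 with the set term, 0.133 on the second strand column and 0.0268 on the sum of both strands, and -0.0942 to 0.0381 with 1 library left out. DDIT4 in melatonin was -0.0473 on the second strand column and -0.0663 to 0.202 with 1 library left out. In melatonin against siCLOCK, CEBPB was 0.0129 with upper-quartile scaling, 0.0045 with at least 5 CPM, 0.0419 with the set term, 0.0267 and 0.0209 on the strand columns and 0.0195 on their sum. The set term gave -0.0013 for SESN2 and 0.0575 for TRIB3, and the first strand column gave 0.0838 for ATF3 and -0.127 for ATF5. Leaving out 1 library there gave -0.0568 to 0.0237 for CEBPB, -0.0123 to 0.0703 for SESN2, -0.181 to 0.0167 for ATF3 and -0.0636 to 0.222 for ATF5. The sum of both strand columns was chosen after seeing the data. Depth limits ADM2 and ATF3 most, at 66 to 186 and 90 to 190 reads a library.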
